A study of Mus musculus with 6 samples.

Results

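The H2- genes are the mouse genes of the major histocompatibility complex (MHC), the H-2 complex of chromosome 17. They were taken as every gene or pseudogene of the GENCODE GRCm38 annotation whose symbol begins with H2- and its hyphen, which gave 45 of 55341 symbols, 34 of them protein-coding and 11 pseudogenes. By the letters that follow the hyphen, 3 members were K/D genes, 8 were Q genes, 6 were T genes, 14 were M genes and 12 were class II genes. The other 2, H2-Ke6 and H2-Bl, belong to none of these groups by their symbols. All 45 lay on chromosome 17 between positions 33974659 and 37483552 of GRCm38, a span of 3508894 bp that also held 278 other annotated genes.

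Classical class I molecules, encoded by the K and D genes, are carried by nearly all nucleated cells and present peptides made inside the cell to CD8 T cells. The Q, T and M genes encode nonclassical class I molecules, which are more restricted in the cells that carry them and in what they bind. Class II molecules pair an α with a β chain and present peptides from outside the cell to CD4 T cells, mainly on professional antigen-presenting cells, and epithelial cells of the gut can carry them in inflammation. TNFα is an inflammatory cytokine that can act on class I genes through NF-κB, whereas class II genes depend on the coactivator Ciita.

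Trimethylation of lysine 4 of histone H3 (H3K4me3), a mark of active promoters, and of lysine 27 (H3K27me3), a mark of repressed chromatin, was measured by ChIP-seq in colonic organoids, three-dimensional cultures of colon epithelium, of C57BL/6 mice. Wild-type organoids received no cytokine (wt) or TNFα at 40 ng/ml over 3 weeks (wt+TNFα), and the conditions shared the C57BL/6 genotype. Whether both cultures came from the same animal, or from animals of the same sex, is not given in the sources used here. Each condition had 1 library per mark and 1 input, so no difference below has a replicate check, and no error or p-value can be given. The intended depth was 40000000 reads for H3K4me3 and input and 60000000 for H3K27me3, and the depth behind a single peak is unknown. In the reporting summary the wt+TNFα H3K4me3 library and input had more reads than those of wt, whereas the H3K27me3 totals were nearly equal, and the part of depth in weak H3K4me3 peaks was not tested. The peak lists give only called regions, so a promoter outside every peak had no called signal, which is not a measured level of 0.

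The lists differed in size as a whole. The H3K4me3 lists held 11552 peaks in wt and 11894 in wt+TNFα, and covered 18.2 and 19.97 Mb. The H3K27me3 lists held 30594 and 60540 peaks, and covered 102 and 303 Mb. On the X chromosome the lists covered 0.597 and 74.7 Mb, or 0.349% and 43.7% of it, and on the autosomes 101 and 228 Mb. H3K4me3 peaks on the Y chromosome numbered 3 in wt and 0 in wt+TNFα. A difference between the animals behind the cultures and the treatment therefore cannot be told apart in any comparison below. The H3K27me3 lists also differed in a processing tag, since the name of the wt list mentions a spike-in and that of the wt+TNFα list does not, which the methods do not explain. The part of that step in the H3K27me3 results was not tested. Of the H3K27me3 peaks, 12.8% in wt and 19.5% in wt+TNFα had a −log10 q of at least 2, the cutoff that the reporting summary names for this mark, so most peaks of both lists lay below it. The wt list reached down to a −log10 q of 0.302 and the wt+TNFα list to 0.747, whereas by −log10 p they ended at 2.01 and 2.02, so the lists differ in the weakest q they admit and hardly in the weakest p. The wt peak at H2-Eb2, with a −log10 q of 0.561, was weaker by q than any of wt+TNFα. All deposited peaks are used below unless a limit is named. By presence alone, H3K27me3 called in wt+TNFα alone cannot be told apart from the greater length of that list, so such results are set beside the same count over all genes and beside lists of equal covered length on the autosomes. H3K4me3 lay at the promoters of 8 of 10 epithelial marker genes in wt and 7 in wt+TNFα. It lay at 0 of 6 immune marker genes, among them the pan-leukocyte gene Ptprc, and at 0 of 6 stromal and endothelial marker genes in either list. Of all genes, 24.3% in wt and 24.7% in wt+TNFα had H3K4me3. H3K27me3 lay at 2 of the epithelial genes, Muc2 and Lgr5, and at 4 of the immune genes in both lists. It lay at 4 of the stromal and endothelial genes in wt and 5 in wt+TNFα, where all genes had 14.2% and 23.2%.

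A promoter was the union of the 1000 bp on each side of every annotated transcript start of a gene, and a peak was assigned when at least 1 bp overlapped. H3K4me3 was called at the promoters of 11 members in wt and 14 in wt+TNFα, that is 24.4% and 31.1% of the members, against 24.3% and 24.7% of all genes. Of the 34 protein-coding members it was called at 26.5% and 32.4%, below the 50.5% and 51.2% of all protein-coding genes. Of the members, 11 were called in both lists, 0 in wt alone and 3 in wt+TNFα alone (6.67%), where the background over all genes was 0.407% in wt alone and 0.851% in wt+TNFα alone. Among the other 278 genes of the span, 7 were called in wt+TNFα alone (2.52%) and 1 in wt alone. H3K27me3 was called at 12 members in wt and 21 in wt+TNFα, or 26.7% and 46.7%, against 14.2% and 23.2% of all genes, and at 20.6% and 41.2% of the protein-coding members, against 21.7% and 29.5% of protein-coding genes. Of the members, 12 were called in both lists, 0 in wt alone and 9 in wt+TNFα alone (20%), where the background was 1.04% in wt alone and 9.96% in wt+TNFα alone. Among the other 278 genes of the span, H3K27me3 was called at 56 in wt (20.1%) and 75 in wt+TNFα, with 25 genes in wt+TNFα alone (8.99%) and 6 in wt alone (2.16%). With −log10 q of at least 2, H3K27me3 was called at 6 members in wt and 13 in wt+TNFα, with 1 in wt alone and 8 in wt+TNFα alone, where all genes had 7.57%, 13.8%, 0.361% and 6.57%.

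The marks divided the classes. All 3 K/D members had H3K4me3 in both lists and none had H3K27me3 in either. Of the 12 class II members, 8 in wt and 12 in wt+TNFα had H3K27me3, whereas H3K4me3 was called at 1 and 2 of them. With H3K27me3 peaks of −log10 q of at least 2, 2 of the 12 had the mark in wt, H2-Ob and H2-Ab1, and 9 in wt+TNFα. The Q genes had H3K4me3 at 2 of 8 members in each list and H3K27me3 at 0 and 2. The T genes had H3K4me3 at 2 and 3 of 6 members and H3K27me3 at 2 and 3. The 14 M genes were mostly outside peaks, with H3K4me3 at 1 and 2 and H3K27me3 at 1 and 3. In wt, 9 members had H3K4me3 alone, 10 had H3K27me3 alone, 2 had both marks and 24 had neither, and in wt+TNFα these counts were 9, 16, 5 and 15. Joint states were not counted over all genes, so these counts, also under the limits below, have no background. The part of the longer wt+TNFα H3K27me3 list in their differences was not tested over all genes. At equal covered length of H3K27me3, wt+TNFα had 10 members with H3K27me3 alone and 2 with both marks, H2-DMa and H2-Bl, as in wt. The members with both marks in wt+TNFα were 3 with 1 start per gene, 3 with H3K27me3 peaks of −log10 q of at least 2 and 1, H2-DMa, with peaks above the median −log10 q of each list. With −log10 q of at least 2, 5 members had H3K27me3 alone in wt and 10 in wt+TNFα.

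**Figure D1:**
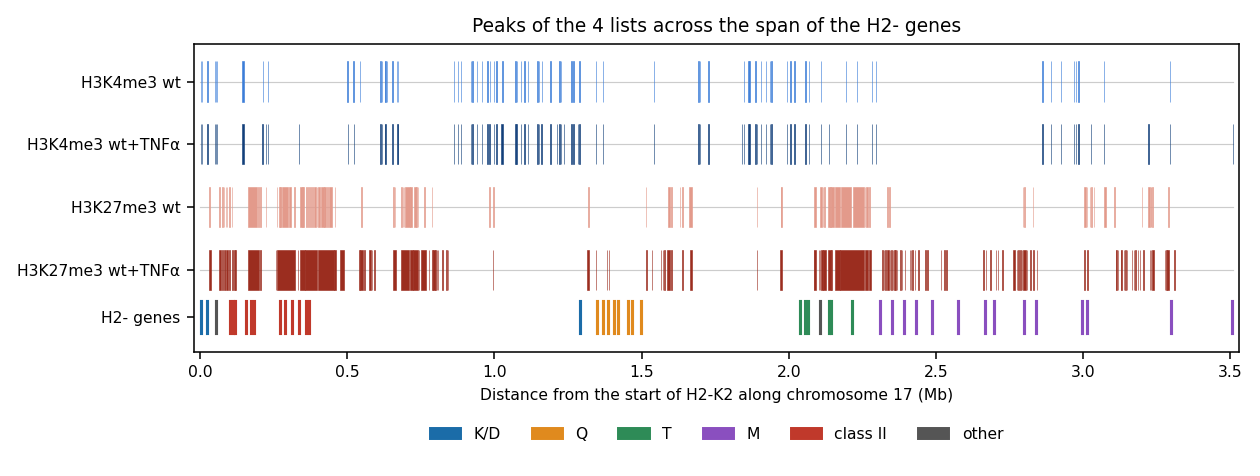
Called peaks of the 4 lists (bars, rows from top to bottom) along chromosome 17, as distance in Mb from the start of H2-K2, with the 45 H2- genes as ticks coloured by class in the lowest row. The class II genes and the end of the T genes lie in stretches dense in H3K27me3 peaks in both lists, and the K genes lie outside H3K27me3 peaks.

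The covered share of a promoter is the percent of its bases that lie under peaks of a list, and a shift of at least 25 percentage points between the lists was called. For H3K4me3 the share was higher in wt+TNFα by that much in 2 members (background 0.493% of all genes) and lower in 0 (background 0.134%). For H3K27me3 it was higher in 7 members, or 15.6% (background 11.1%), and lower in 1, or 2.22% (background 1.02%). Of the 7 members with a higher H3K27me3 share, 5 were class II genes. At equal covered length on the autosomes 4 members were higher (H2-Ob, H2-Aa, H2-Eb2 and H2-T3) and 2 were lower (H2-T10 and H2-T-ps). Share shifts over all genes were counted with the full lists alone, so these 4 and 2 members have no background. The 2 members with a higher H3K4me3 share, H2-T-ps and H2-M2, were 0 with promoters of 2000 bp on each side or with upstream bases alone. With 45 members 1 gene is 2.22%, so no excess is read from the H3K27me3 shares of 15.6% and 2.22% against 11.1% and 1.02% of all genes. The 1 member with lower H3K27me3 was no protein-coding gene. The higher H3K4me3 share rests on 2 members.

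**Figure D2:**
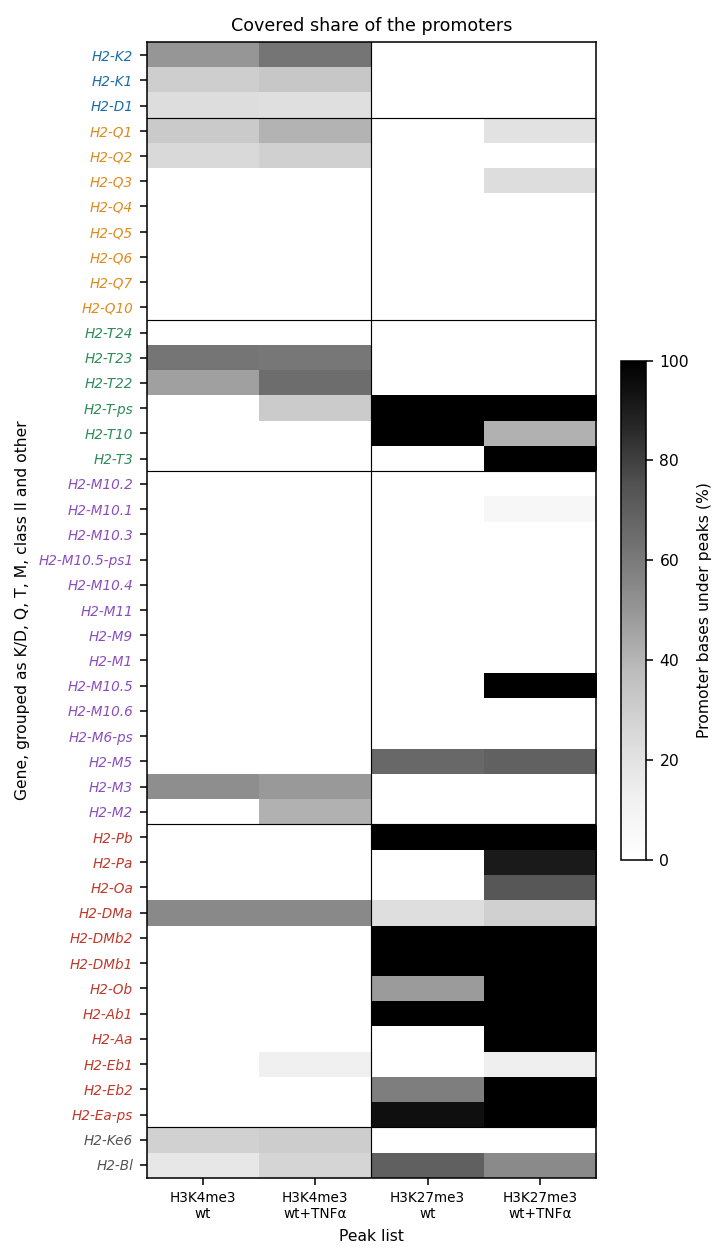
Percent of promoter bases under peaks (grey scale from 0 to 100%) for the 45 H2- genes, in rows grouped by class and ordered along the chromosome, in the 4 peak lists as columns. H3K4me3 lies in all K/D rows (21.7% to 61.5%) and, among the class II rows, in H2-DMa (54.5%) and faintly in H2-Eb1, while H3K27me3 covers 100% of most class II promoters in wt+TNFα.

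The classical class I genes carried H3K4me3 and no H3K27me3. H2-K1 (chr17:33996017-34000347), which encodes the K heavy chain, had a wt peak 1701 bp wide whose fold enrichment was 35.7, where the fold enrichment is the ChIP signal over the local background that the authors' peak caller derived from the input. That value stood at percentile 76.1 of all wt H3K4me3 peaks. In wt+TNFα the peak was 1871 bp wide with a fold enrichment of 47.6, at percentile 93.9 of its own list. H2-D1 (chr17:35262730-35267499), which encodes the D heavy chain, had a fold enrichment of 40.9 in wt and 42.2 in wt+TNFα, at percentiles 85.4 and 86.5, with widths of 1786 and 1734 bp. H2-K1 thus moved up within its list and H2-D1 kept nearly the same place. The pseudogene H2-K2, beside H2-K1, had a weaker peak of fold enrichment 10.4 in wt and 23.4 in wt+TNFα, at percentiles 15.7 and 41.1. Its covered share went from 49.8% to 61.5%, against 30.0% and 33.0% for H2-K1 and 22.9% and 21.7% for H2-D1, all below the 25-point call. The reporting summary lists the peak caller's option that scales signal tracks by the number of reads (SPMR) for both marks, and how the fold enrichments of separate lists compare is not given in the sources used here, so fold enrichments are given side by side and no fold between lists is drawn.

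The stretches of 300 bases at the starts of H2-K1 and H2-D1 are shown because all 300 lay under H3K4me3 in both lists and under no H3K27me3 peak, unlike the wider promoters above, which were covered in part. Each sequence is the RefSeq promoter of GRCm38.p6, 250 bases before to 50 after the start, 5′ to 3′ on the strand of the gene. Capitals mark matches to 3 motifs searched on both strands, GATTGG (the Y box type of MHC promoters), GGGNNTTCC (κB type, the kind bound by NF-κB) and GAANNGAAA (interferon response type).
H2-K1 (chr17:34000298-34000597, minus strand): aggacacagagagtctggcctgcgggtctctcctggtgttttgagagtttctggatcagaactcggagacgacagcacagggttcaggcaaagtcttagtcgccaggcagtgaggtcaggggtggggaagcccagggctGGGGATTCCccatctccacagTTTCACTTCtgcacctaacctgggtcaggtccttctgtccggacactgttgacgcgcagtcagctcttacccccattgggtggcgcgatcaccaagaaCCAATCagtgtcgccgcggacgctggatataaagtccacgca
H2-D1 (chr17:35262844-35263143, plus strand): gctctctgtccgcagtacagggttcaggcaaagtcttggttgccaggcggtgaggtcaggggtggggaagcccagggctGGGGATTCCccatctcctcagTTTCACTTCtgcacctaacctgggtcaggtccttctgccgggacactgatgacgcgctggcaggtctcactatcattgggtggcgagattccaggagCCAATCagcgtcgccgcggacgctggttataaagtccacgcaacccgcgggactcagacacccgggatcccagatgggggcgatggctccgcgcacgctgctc
Each of the pair held 1 match to each motif, in the same order, and no matches overlapped. GGGGATTCC is the κB-type match in both. Over all 32851 promoters of the RefSeq table, 16.1% held GATTGG, 5.82% GGGNNTTCC and 7.52% GAANNGAAA. Of the 32 members with a promoter in the table, 26, 8 and 8 held them. The κB-type and the interferon-type motif were both present in H2-Q4, H2-Q6 and H2-Q7, which had no peak of either mark, and in H2-M2. A match is a run of letters and says nothing of binding.

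Among the nonclassical genes, H2-T23, H2-M3 and H2-Q2 carried the strongest H3K4me3. H2-T23 encodes Qa-1, a ligand of the inhibitory CD94/NKG2A receptor of natural killer cells. Its fold enrichment was 42.3 in wt and 38.5 in wt+TNFα, at percentiles 87.6 and 79.1, and its covered share was 61.3% and 60.7%. H2-M3, which presents formylated bacterial and mitochondrial peptides, had fold enrichments of 21.8 and 27.2, at percentiles 42.7 and 50.3, with 52.4% and 49.1% of its promoter covered. Both were in H3K4me3 alone in both conditions.

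H2-Q2 made the largest upward move in percentile among the 11 members called in both lists. It had a fold enrichment of 16.3 in wt at percentile 29.2, and 33.7 in wt+TNFα at percentile 68.0, while its covered share went only from 24.96% to 28.8%. H2-Q1 was low in both, with fold enrichments of 7.0 and 10.8 at percentiles 7.27 and 16.1 and covered shares of 31.6% and 40.4%. In wt+TNFα alone, the H2-Q1 promoter also had a 437-bp H3K27me3 peak with a fold enrichment of 2.03. The remaining Q genes had no H3K4me3 in either list, and of these the pseudogene H2-Q3 had 22.6% of its promoter under H3K27me3 in wt+TNFα alone.

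H2-T22, which encodes a ligand of some γδ T cell receptors, had fold enrichments of 11.4 and 15.5 at percentiles 18.2 and 25.3. Its covered share went from 46.8% to 64.7%, and the peak also overlapped the promoter of Gm6034. H2-Ke6, a hydroxysteroid dehydrogenase gene that lies in the complex but encodes no MHC molecule, went from 24.6 at percentile 49.8 to 14.2 at percentile 22.9. H2-Bl went from 13.7 at percentile 23.3 to 8.45 at percentile 10.9. It was also under H3K27me3 in both lists, with 69.3% of its promoter covered in wt and 54.1% in wt+TNFα. The places of H2-Ke6 and H2-Bl in their lists thus went down, and their covered shares, 28.3% and 30.3% for H2-Ke6 and 17.5% and 26.9% for H2-Bl, went slightly up.

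**Figure D3:**
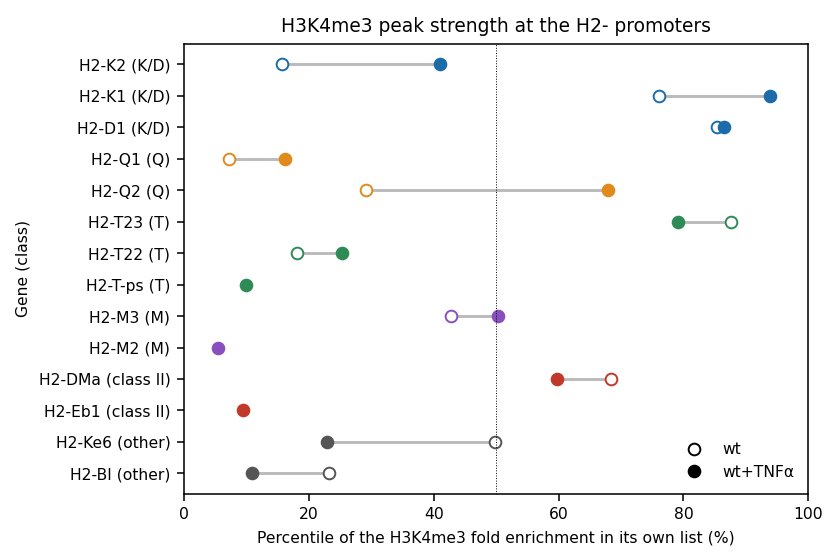
Percentile of the H3K4me3 fold enrichment within its own list (horizontal axis, %) for the 14 H2- genes with a promoter peak, in wt (open circles) and wt+TNFα (filled circles), coloured by class; the dotted line is the median of a list. H2-Q2 moves from 29.2 to 68.0 and H2-K1 from 76.1 to 93.9, while H2-T-ps, H2-M2 and H2-Eb1, called in wt+TNFα alone, lie at or below 10.0.

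The 3 members with H3K4me3 in wt+TNFα alone were weak peaks at a T pseudogene, an M gene and a class II gene. H2-T-ps (chr17:36109234-36111658) had no wt peak and a 621-bp wt+TNFα peak (fold enrichment 8.08, percentile 10.0), which contained its start and covered 31.03% of its promoter. The same peak overlapped the promoter of BC023719. The H2-T-ps promoter was wholly under H3K27me3 in both lists, so in wt+TNFα it was called for both marks. At equal covered length its wt+TNFα H3K27me3 call was lost. H2-M2 (chr17:37480851-37483552) had no wt peak and an 826-bp wt+TNFα peak (fold enrichment 6.55, percentile 5.39). It began 9 bp downstream of the nearer of its 2 annotated starts and covered 41.3% of the promoter. The nearest wt H3K4me3 peak was 211504 bp away from that promoter.

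H2-Eb1 (chr17:34305867-34316674) encodes the β chain of the class II E molecule. Its 491-bp H3K4me3 peak (fold enrichment 7.88, percentile 9.49) was called in wt+TNFα alone and covered 11.8% of the promoters. The peak contained the start of 1 transcript with a retained intron at position 34309575, and it lay 3525 to 3675 bp downstream of the starts of the other 4 transcripts, the protein-coding ones included. When 1 start per gene was used, H2-Eb1 was no longer called and the members with H3K4me3 in wt+TNFα alone were 2. When bases upstream of the starts were used alone, H2-M2 lost its wt+TNFα call, and H2-Q2 lost its wt call and so counted in wt+TNFα alone. When the weaker peaks, at or below the median −log10 q of a list, were left out, 4 members in wt and 5 in wt+TNFα remained, and the 3 calls in wt+TNFα alone were lost, with H2-Q2 the 1 member then called there alone.

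The promoters of these 3 genes are shown to compare them with those of H2-K1 and H2-D1, with capitals and source as above.
H2-T-ps (chr17:36111627-36111926, minus strand): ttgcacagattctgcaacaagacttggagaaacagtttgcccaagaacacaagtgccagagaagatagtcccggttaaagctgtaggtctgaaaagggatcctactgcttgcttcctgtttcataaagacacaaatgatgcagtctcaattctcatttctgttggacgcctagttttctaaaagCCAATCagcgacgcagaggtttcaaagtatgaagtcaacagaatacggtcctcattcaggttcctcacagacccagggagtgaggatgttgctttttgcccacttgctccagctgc
H2-M2 (chr17:37483505-37483804, minus strand): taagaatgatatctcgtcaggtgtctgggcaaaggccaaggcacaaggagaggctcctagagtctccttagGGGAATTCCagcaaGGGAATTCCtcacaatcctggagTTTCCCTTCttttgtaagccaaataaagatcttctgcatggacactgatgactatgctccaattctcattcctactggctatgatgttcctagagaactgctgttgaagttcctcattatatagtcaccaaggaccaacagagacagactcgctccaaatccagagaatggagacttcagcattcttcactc
H2-Eb1 (chr17:34305617-34305916, plus strand): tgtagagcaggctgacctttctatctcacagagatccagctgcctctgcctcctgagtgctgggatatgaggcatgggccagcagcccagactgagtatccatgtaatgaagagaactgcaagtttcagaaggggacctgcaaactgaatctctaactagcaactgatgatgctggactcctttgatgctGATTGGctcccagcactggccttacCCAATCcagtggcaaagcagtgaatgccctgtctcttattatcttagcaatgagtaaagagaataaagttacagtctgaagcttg
The wt+TNFα H3K4me3 peaks covered 72 of the 300 bases at H2-T-ps, 38 at H2-M2 and 0 at H2-Eb1, and the wt peaks covered 0 in each. H2-M2 held 2 matches to the κB-type motif and 1 to the interferon-type motif, and none to GATTGG. H2-T-ps held 1 match to GATTGG and H2-Eb1 held 2, with none to the other motifs.

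Near copies among the members bear on how well reads can be placed. In GRCm38.p6, the share of the 50-base words of a promoter that occur once on the assembled chromosomes ran from 35.1% to 100% over the members. The lowest were H2-Q7 with 35.1% and H2-Q5 and H2-Q6 with 42.2% each, all without a peak of either mark. H2-T-ps followed with 54.6% and H2-T23 with 58.8%. These share 886 words, 45.4% of those of H2-T-ps. Within the wt+TNFα H3K4me3 peak of H2-T-ps, 78.8% of words were unique, and 121 of its 572 words occur in the promoters of H2-T23, whose own peak was strong in both lists. The peaks of H2-M2 and H2-Eb1 consisted of unique words alone (100%). In H2-K1 and H2-D1 the wt peaks held 86.6% and 85.5% unique words. Per the reporting summary the reads were paired and longer than 50 bases, so they could be placed at more positions than these shares give. The part of sequence copies in the presence or absence of peaks was not tested.

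Class II had the highest number and share of promoters with H3K27me3 among the classes in each list. With −log10 q of at least 2 this did not hold in wt, where 2 of 12 class II members and 2 of 6 T members had the mark. Over the stretch from the first to the last gene of a class, wt coverage under that cutoff was 39.6% for T and 8.56% for class II. The median covered share of the 12 class II promoters was 53.4% in wt and 100% in wt+TNFα, while the median over all genes was 0% in both. The genes of the A molecule, the main class II molecule of C57BL/6 mice, differed in wt. The β chain gene H2-Ab1 (chosen for mention after its values were seen) was covered at 100% in both lists, by a 21563-bp peak in wt (fold enrichment 3.05) and a 61417-bp peak in wt+TNFα (2.70). The α chain gene H2-Aa had 0% in wt and 100% in wt+TNFα. Its promoter lay 4393 bp from the nearest wt peak, and the long wt+TNFα peak of H2-Ab1 reached across it. That peak, at chr17:34235920-34297336, overlapped 7 wt peaks, which covered 61.3% of it.

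For the E molecule, H2-Eb1 had 0% in wt and 13.1% in wt+TNFα, from a 2099-bp peak (fold enrichment 2.09) between its upstream starts and the start with H3K4me3. H2-Eb2 went from 58.4% to 100%. H2-Ea-ps, the α chain gene, which is not expressed in C57BL/6 mice, went from 94.6% to 100% and is named here after its values were seen. All 3 were thus higher in the wt+TNFα list, H2-Eb1 and H2-Ea-ps by less than 25 points.

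The genes of the peptide-editing molecules were covered as follows. H2-DMb1 and H2-DMb2, which encode β chains of H2-DM, the molecule that loads peptides onto class II, were covered at 100% in both lists by a single long peak, of 32868 bp in wt (fold enrichment 2.42, percentile 84.98) and 39804 bp in wt+TNFα (2.81, percentile 96.3). The α chain gene H2-DMa was the only class II member with H3K4me3 in both lists, from a peak of 7662 bp in wt and 7944 bp in wt+TNFα that it shared with the promoters of Brd2 and CR974462.3. The summits lay about 1 kb upstream, at −1051 and −1048 bp from the nearest H2-DMa start. Its H3K27me3 covered share was 22.2% in wt and 28.6% in wt+TNFα, over its downstream starts. With 1 start per gene, H2-DMa had no H3K27me3 call in either list. H2-Oa and H2-Ob encode the chains of H2-O, an inhibitor of H2-DM. H2-Ob went from 48.3% to 100%, with no wt call when 1 start per gene was used, and H2-Oa from 0% to 72.7% with a peak whose fold enrichment was 1.86, at percentile 39.7. The pseudogene H2-Pa went from 0% to 90.7%, with a wt peak 216 bp from its promoter that was reached by promoters of 2000 bp, and H2-Pb, named here after its values were seen, was at 100% in both.

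**Figure D4:**
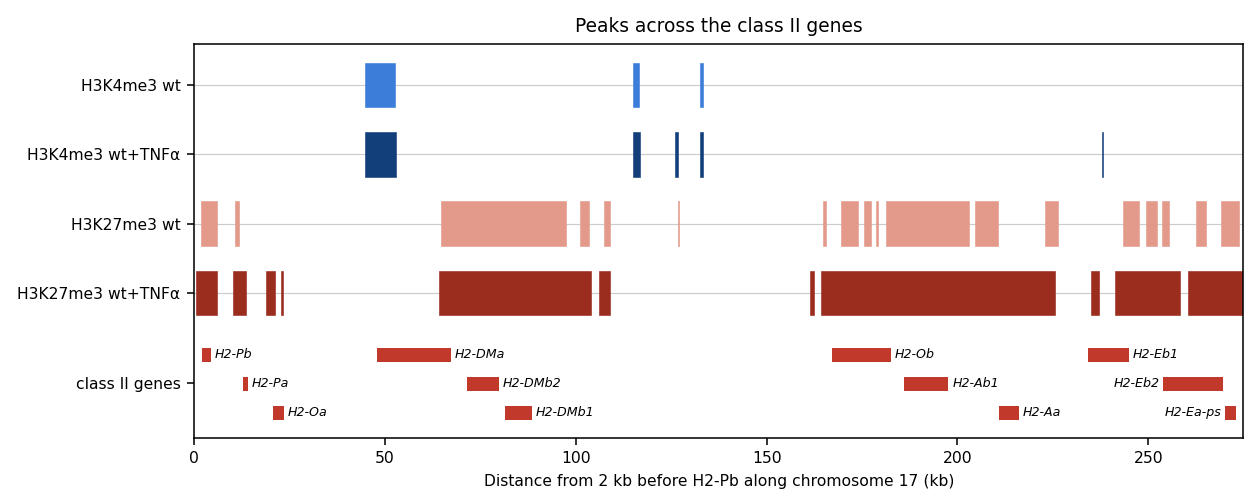
Called peaks of the 4 lists (rows) across the class II genes, as distance in kb from 2 kb before H2-Pb, with the genes drawn to scale below. The 7 separate wt H3K27me3 peaks around H2-Ob, H2-Ab1 and H2-Aa overlap 1 wt+TNFα peak of 61417 bp, and a thin H3K4me3 bar in wt+TNFα alone lies inside H2-Eb1.

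Over the whole class II interval from H2-Pb to H2-Ea-ps, 270884 bp, H3K27me3 covered 35.3% in wt with 18 peaks, the longest of 32868 bp, and 54.4% in wt+TNFα with 11, the longest of 61417 bp. Chromosome 17 as a whole was covered at 3.75% and 8.85%. With −log10 q of at least 2, class II was covered at 8.56% in wt and 50.9% in wt+TNFα, and chromosome 17 at 1.45% and 4.56%, so most of the class II coverage in wt came from peaks below that cutoff. When the strongest wt+TNFα peaks were taken until the autosomes had the same covered length as in wt, class II was at 49.8%, still 14.5 points above wt, while chromosome 17 was at 3.86%, 0.111 points above wt. That limit sets the 7641 strongest autosomal peaks of wt+TNFα against all 30347 of wt, so the lists are alike in covered length and not in the number, length or strength of their peaks. By members, the calls in wt+TNFα alone went from 9 to 2 under that limit, H2-Aa and H2-T3, and the members called in wt+TNFα from 21 to 12, where all genes had 1.19% in wt+TNFα alone and 11.1% in wt+TNFα. In wt 12 members were called (all genes 14%) and 2 in wt alone, H2-T10 and H2-T-ps (all genes 4.03%). Both H2-Aa and H2-T3 lie in wt+TNFα peaks that overlap wt peaks elsewhere, so neither was called in wt+TNFα alone when peaks were compared as a whole. The 9 class II members H2-Pb, H2-DMa, H2-DMb2, H2-DMb1, H2-Ob, H2-Ab1, H2-Aa, H2-Eb2 and H2-Ea-ps were among the 12 called in wt+TNFα under that limit. H2-Pa, H2-Oa and H2-Eb1 were lost.

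The T genes lay at the edge of another stretch of H3K27me3. From H2-T24 to H2-T3, 184593 bp, 45.6% was covered in wt and 50.6% in wt+TNFα, and 43.4% at equal covered length. H2-T3 encodes the thymus leukaemia antigen, a class I molecule of the intestinal epithelium that binds CD8αα. Its promoter was covered at 0% in wt and 100% in wt+TNFα, where it lay in the H3K27me3 peak that was the longest at any member and had the highest fold enrichment, 81271 bp wide, its fold enrichment 3.94 at percentile 99.3. In wt the promoter lay in a gap, 1464 bp from the nearer of 2 peaks of 35774 and 37686 bp that covered 90.4% of the same stretch. H2-T10 ran the other way. It is annotated as a polymorphic pseudogene, and its covered share was 100% in wt, under a 9393-bp peak (fold enrichment 2.59), and 41.1% in wt+TNFα, under a 1975-bp peak (2.07). It was the only member with a lower share by 25 points. With upstream bases alone, with −log10 q of at least 2, or at equal covered length, H2-T10 was called in wt alone. Neither H2-T3 nor H2-T10 had H3K4me3.

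The H2-M genes had few marks. The M10 genes are known for expression in vomeronasal neurons. The promoter of H2-M10.5 went from 0% to 100% under a 10248-bp H3K27me3 peak (fold enrichment 1.96, at percentile 63.0 of its list), and the nearest wt peak was 107 bp from its promoter. H2-M10.1 had 0% and 6.56%, from a peak with a fold enrichment of 1.88. H2-M5 had 66.7% and 68.9% and the highest wt+TNFα fold enrichment of its class, 2.50. The stretch from H2-M10.2 to H2-M10.6, 531338 bp, was covered at 1.68% in wt with 5 peaks and 18.2% in wt+TNFα with 38, and at 1.19% in wt+TNFα at equal covered length. The calls at both M10 genes were lost at equal covered length.

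**Figure D5:**
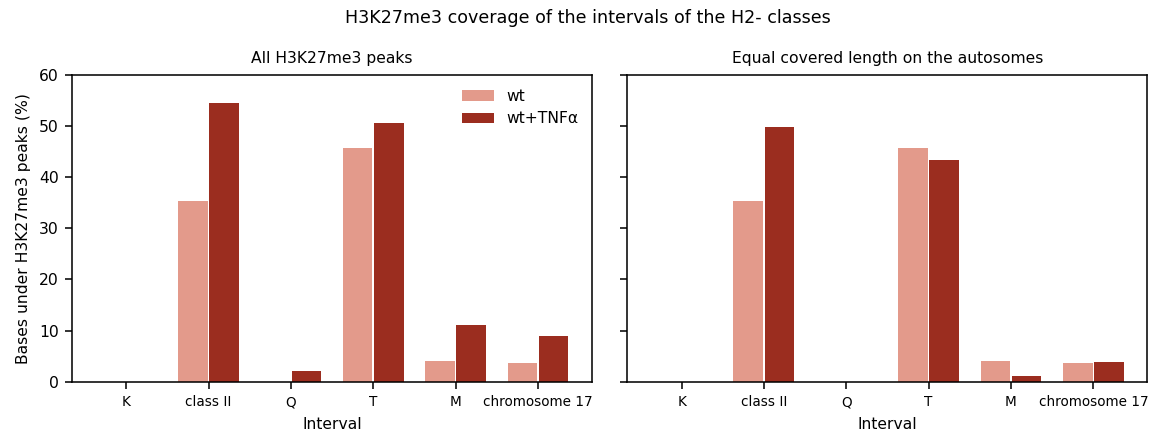
Percent of bases under H3K27me3 peaks (bars from 0) in the intervals from the first to the last gene of each class and on chromosome 17, in wt (light) and wt+TNFα (dark), with all peaks (left) and with the wt+TNFα list limited to the covered length of wt on the autosomes (right); each bar is 1 library. Class II stays higher in wt+TNFα on the right (49.8% against 35.3%), while T (43.4% against 45.6%) and M (1.20% against 4.09%) do not.

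No peak of either mark in either list was found at 15 members, H2-Q4, H2-Q5, H2-Q6, H2-Q7, H2-Q10, H2-T24, H2-M10.2, H2-M10.3, H2-M10.5-ps1, H2-M10.4, H2-M11, H2-M9, H2-M1, H2-M10.6 and H2-M6-ps. H2-Q10 encodes a secreted molecule made in the liver.

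Other genes of antigen presentation were read from a list of 20. H3K4me3 was called at 16 in wt and 18 in wt+TNFα, with 2 in wt+TNFα alone, Nlrc5 and Psmb8, where all genes had 24.3%, 24.7% and 0.851% and protein-coding genes 50.5%, 51.2% and 1.49%. H3K27me3 was called at 3 in wt and 2 in wt+TNFα, against 14.2% and 23.2% of all genes and 21.7% and 29.5% of protein-coding genes. At their peaks of highest fold enrichment, all 3 wt calls lay below a −log10 q of 2 (Nlrc5 1.26, Ciita 0.895, Psmb8 0.622). The wt+TNFα calls lay above it (Nlrc5 2.69, Ciita 2.07). B2m, the light chain of class I molecules, had H3K4me3 in both lists with fold enrichments of 36.7 and 38.8 and covered shares of 54.4% and 62.0%, and no H3K27me3, like H2-K1 and H2-D1. Nlrc5, the coactivator of class I genes, had a 462-bp H3K4me3 peak in wt+TNFα alone (fold enrichment 7.30) that covered 3.83% of its promoters, and its H3K27me3 share went from 33.7% to 87.8%. Ciita, the coactivator of class II genes, had no H3K4me3 in either list and H3K27me3 over 85.5% and 80.4% of its promoters. Cd74, the invariant chain of class II, had neither mark. Psmb8, an immunoproteasome subunit that lies among the class II genes, is named after its values were seen. It had H3K4me3 in wt+TNFα alone, with a fold enrichment of 9.70, and H3K27me3 in wt alone over 10.3% of its promoters. That wt peak was 376 bp wide with a fold enrichment of 1.97. Its −log10 q of 0.622 was weaker than any of the wt+TNFα list, which ended at 0.747, so no exchange of marks is read from it.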

How the data were processed

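H3K4me3 and H3K27me3 ChIP-seq peaks of wt and wt+TNFα organoids were used, and the reads and inputs were not analysed here. Per the methods and the submitters' processing notes, the authors used fastp for trimming, bwa-mem (2.2) for alignment to GRCm38/mm10, SAMtools (1.11) for duplicate removal and MACS2 (2.1.0) with the input for peak calling, after blacklisted regions had been taken out. The names of all 4 lists carry the tag Q25, and those of 3, all but wt+TNFα H3K27me3, a spike-in tag. The methods explain neither tag nor how reads with several placements were treated. The deposited lists give, per peak, the fold enrichment, a ratio of ChIP to local background, and the authors' p-value and q-value as −log10. The reporting summary lists the MACS2 option SPMR (signal scaled by the number of reads) for both marks, and a q-value cutoff for H3K27me3 that most deposited peaks lie below. How the fold enrichments of separate lists compare is not given in the sources used here, so they were ranked within a list.

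Peaks were read as 1-based positions. Genes and starts came from GENCODE M21 (55450 genes, 55341 symbols, 141767 transcripts), counted by symbol. A call was the presence of a peak (overlap of at least 1 bp with a promoter of 1000 bp on each side of each start) or a covered-share difference of at least 25 points. With 1 library per condition and mark there was no test. Promoter sequences were RefSeq's, and words of 50 bases were counted on both strands of the assembled chromosomes. Steps were tested on simulated lists. Python 3.11.15, numpy 2.4.6 and matplotlib 3.10.9 were used.

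The members, classes, lists and rules were chosen with earlier results of these data known. By rule, members were named when they had an H3K4me3 peak, a different H3K27me3 call or the highest wt+TNFα H3K27me3 fold enrichment of their class, and B2m, Nlrc5, Ciita and Cd74 among the pathway genes. H2-Ab1, H2-Ea-ps, H2-Pb, Psmb8 and, for unique words, H2-Q5, H2-Q6 and H2-Q7 were named after their values were seen. Alternatives were promoters of 500 or 2000 bp on each side, upstream bases alone, whole peaks, 1 start per gene, a minimum overlap of 200 bp, and lists cut at the median −log10 q, at −log10 q of 2 (H3K27me3), at equal peak numbers or at equal autosomal length (H3K27me3).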

Additional observations from a re-analysis of the deposited data

How the results depend on the processing

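Counts of members are given as the alternative value with the value of the report in brackets. With peaks above the median −log10 q, H3K4me3 was called at 4 members in wt (11), 5 in wt+TNFα (14) and 1 in wt+TNFα alone (3). With −log10 q of at least 2, H3K27me3 was called at 6 in wt (12), 13 in wt+TNFα (21) and 1 in wt alone (0), and of the 8 then called in wt+TNFα alone, 2 were among the 9 of the report. At equal covered length on the autosomes, H3K27me3 was called at 12 in wt+TNFα (21), 2 in wt alone (0) and 2 in wt+TNFα alone (9), and with upstream bases alone 1 was called in wt alone (0). With whole peaks, 5 were called in wt+TNFα alone (9), without H2-Aa, H2-M10.5, H2-Pa and H2-T3.

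The other counts of members called for a single mark, in a list or in one list alone, stayed within 1.5 times under the 8 alternatives for H3K4me3 and the 10 for H3K27me3, of which whole peaks applies only to calls in one list alone. The counts of joint marks, shares and classes and the interval values that follow were added after seeing the data, those of shares under alternatives already planned for single members. Members with H3K4me3 alone (9 in wt and 9 in wt+TNFα) were 3 and 4 above the median −log10 q. Those with H3K27me3 alone in wt (10) were 5 with −log10 q of at least 2, and in wt+TNFα (16) 10 there and at equal covered length. Those with both marks in wt (2) were 1 with 1 start per gene, above the median or with −log10 q of at least 2, and in wt+TNFα (5) they were 3, 1 and 3 under these and 2 at equal covered length. Members with a higher H3K4me3 share (2) were 0 with promoters of 2000 bp or upstream bases alone and 1 above the median −log10 q. Those with a higher H3K27me3 share (7) were 11 with promoters of 2000 bp and 4 at equal covered length, and those with a lower one (1) were 2 there and with upstream bases alone. Class II members with H3K4me3 in wt+TNFα (2) were 1 with 1 start per gene or above the median −log10 q, and those with H3K27me3 in wt (8) were 2 with −log10 q of at least 2. Of the counts of the other classes, 10 of 70 for H3K4me3 and 8 of 90 for H3K27me3 moved by over 1.5 times. For intervals, the wt+TNFα minus wt H3K27me3 share in class II (19.1 points) was 42.3 with −log10 q of at least 2, and that of T (5.04) was 8.50 there and −2.19 at equal covered length. That of M (6.94) was 3.07 above the median −log10 q, 1.503 with equal numbers of peaks, −0.497 with −log10 q of at least 2 and −2.89 at equal covered length. That of H2-M10.2 to H2-M10.6 (16.5) was 7.83, 6.96, 1.19 and −0.491 under the same 4 limits. At equal covered length the whole span (8.87) was at 1.19. The stricter lists hold fewer peaks by construction, and other causes were not tested. Each value rests on 1 library, so its precision is unknown.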
